A study of Mus musculus with 12 samples.

Results

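The comparison set freshly isolated Treg cells of C57BL/6 mice against activated effector T cells of the same strain, on 3 arrays each, which are 6 of the 12 arrays of the series. The arrays were chosen by their labels and not by any measured value. Treg cells were isolated from fresh spleen after depletion of CD8+ T cells and B cells, enriched for CD25 on magnetic columns and sorted as CD4+ CD25hi cells. Effector cells came from whole spleen cell cultures given anti-CD3, an antibody that engages the T cell receptor, and were sorted as CD4+ CD25hi cells after 48 hr. Each Treg array held a pool of mice, 8 aged 12 weeks for arrays 1 and 2 and 15 aged 10 weeks for array 3, and each effector array held 1 mouse, aged 10 weeks for array 1 and 14 weeks for arrays 2 and 3. The labels give a purity after sorting of 99.4% and 99.9% for Treg arrays 1 and 2, none for Treg array 3, and 99.6% to 99.9% for the effector arrays. The other 6 arrays hold the same populations from the C57BL/6-2Rbeta-WT/thymus strain, whose transgene was bred onto an IL-2Rbeta-deficient background (the transgenic mice), and they served here as a second measurement of the population difference on arrays that the C57BL/6 difference does not use. Their effector arrays held 1 mouse each, aged 15, 14 and 9 weeks, and their Treg arrays held pools of 4, 8 and 3 mice, aged 33 weeks, 13 weeks and, for array 3, from 7 weeks upward. The purification label of transgenic effector array 3 describes fresh cells, against its title, and the count of transgenic calls without it was 12803 against 12789 with it.

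Treg cells are CD4+ T cells that restrain immune responses, depend on the transcription factor Foxp3 and carry CD25, the alpha chain of the IL-2 receptor, at rest. Conventional CD4+ T cells gain CD25 only after antigen receptor stimulation, when they enlarge, take up iron and nutrients, turn to glycolysis and divide. CD25 thus marks both populations, and neither sort used Foxp3, so the gate by itself does not keep Treg cells out of the cultured CD4+ CD25hi cells.

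The values are log2 expression values from the authors, 1 per probe set and array. No table used here pairs the probe sets with genes, so the lineage markers of either population could not be looked up, and its label could not be checked against them. Gene names were available only for control probe sets, whose identifiers carry the name of the mouse transcript. These cover transferrin receptor (Tfrc), glyceraldehyde-3-phosphate dehydrogenase (Gapdh), beta-actin (Actb), pyruvate carboxylase (Pcx), 18S ribosomal RNA and the B1 and B2 repeats. Of these 19 probe sets, 16 passed a filter of 3 or more of the 12 arrays at 5 or above (log2) and were tested together with the 18271 other probe sets that passed it. A probe set is called where the limma p, adjusted over all 18287 by the Benjamini-Hochberg method, is under 0.05. In that fit 73.8% of all probe sets were called, so a call by itself sets no gene apart. The C57BL/6 arrays of the populations did not overlap in 76.7% of the 18271 other probe sets, so separation sets no gene apart either. With 3 arrays against 3, an exact permutation test of 1 probe set cannot give a two-sided p below 0.1.

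Tfrc and Pcx were both lower in Treg cells, and the 250 bases before the annotated start of each are shown as the promoter stretch of the genes that fell, from RefSeq on GRCm38.p6. RefSeq lists a second start for either gene, whose stretch lies inside the gene and is not shown. The Tfrc stretch lies at chr16:32608646-32608895 and the Pcx stretch at chr19:4510222-4510471, both on the plus strand and upstream of the gene. Capitals mark matches, on either strand, to CCAAT, the box bound by the factor NF-Y, and to CACGTG, the E-box bound by Myc family factors. Both motifs were picked after the sequences were read.
Tfrc: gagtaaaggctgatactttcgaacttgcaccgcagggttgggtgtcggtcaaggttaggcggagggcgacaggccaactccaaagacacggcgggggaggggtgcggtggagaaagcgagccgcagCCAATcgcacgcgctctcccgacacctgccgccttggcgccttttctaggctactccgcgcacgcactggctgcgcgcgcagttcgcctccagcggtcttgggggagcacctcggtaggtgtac
Pcx: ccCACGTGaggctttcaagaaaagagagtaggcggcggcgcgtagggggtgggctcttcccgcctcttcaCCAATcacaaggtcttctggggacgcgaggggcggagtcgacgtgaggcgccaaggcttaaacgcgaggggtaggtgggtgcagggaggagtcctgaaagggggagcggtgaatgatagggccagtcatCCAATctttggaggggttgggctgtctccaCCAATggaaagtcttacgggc
The Tfrc stretch holds 1 CCAAT and no CACGTG, and the Pcx stretch holds 3 CCAAT and 1 CACGTG. Of the 32851 RefSeq promoter stretches of this length, 33.8% hold CCAAT and 6.02% hold CACGTG, so a CCAAT match is common and a CACGTG match is not. The matches describe the sequence and say nothing about binding in these cells.

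Transferrin receptor, which brings iron into the cell and is known as a marker of activated and dividing lymphocytes, had the lower level in Treg cells with all 3 of its probe sets. On the 3′ probe set the Treg arrays read 4.39, 6.22 and 7.66 (log2, arrays 1, 2 and 3) and the effector arrays 10.20, 9.19 and 10.43. All 3 Treg arrays lay below all 3 effector arrays, and the Treg arrays spread more widely. The means were 6.09 ± 1.64 and 9.94 ± 0.66 (log2, SD, n = 3), which differ by -3.85 (standard error 0.75, limma adjusted p = 0.000688). Without Treg array 1 the difference was -3.0, and without Treg array 3 it was -4.64. Treg array 1 lay under a log2 value of 5, and with values under 5 raised to 5 the difference was -3.65. With the 6 C57BL/6 arrays alone the limma adjusted p was 0.00483 on the deposited values. On the middle probe set the Treg arrays read 3.39, 3.39 and 4.70 and the effector arrays 8.22, 6.95 and 8.63. On the 5′ probe set the Treg arrays read 3.21, 3.36 and 4.25 and the effector arrays 7.55, 6.25 and 8.20. On both of these probe sets every Treg array lay under a log2 value of 5, the lower limit of the filter. The transgenic Treg arrays lay under it as well, so both passed the filter only through effector arrays. A lower level in Treg cells was thus the only difference these probe sets could show. With values under 5 raised to 5, effector cells were at least 7.64-fold higher on the middle and at least 5.05-fold higher on the 5′ probe set (limma adjusted p = 1.97e-05 and 9.18e-05 on the deposited values). In transgenic mice Tfrc was lower in Treg cells as well, by -2.85 on the 3′ probe set (limma adjusted p = 0.00547). The difference between both strains was -1.01 (standard error 1.07, limma adjusted p = 0.756) and was not called on any of the 3 probe sets. In these sorted but mixed populations, fewer cells that express a gene and less of its RNA per cell cannot be told apart.

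Pyruvate carboxylase, the mitochondrial enzyme that makes oxaloacetate from pyruvate, was lower in Treg cells on the 1 of its 4 probe sets that was tested. Its 3′ probe set read 3.63, 3.48 and 3.43 on the Treg arrays and 5.68, 5.81 and 5.90 on the effector arrays (log2). The groups did not overlap and each was tight, with means of 3.51 ± 0.11 and 5.80 ± 0.11 (SD, n = 3, limma adjusted p = 1.08e-07). Since the Treg arrays lay under a log2 value of 5, effector cells were at least 1.74-fold higher. The transgenic arrays gave 3.67 to 3.96 in Treg and 5.74 to 5.89 in effector cells, so that effector cells were at least 1.75-fold higher there (limma adjusted p = 3.26e-07 on the deposited values). The 3′ probe set thus passed the filter only through effector arrays. A lower level in Treg cells was therefore the only difference it could show, and its p-values do not bear on the direction. The other 3 Pcx probe sets had C57BL/6 means from 2.31 to 3.69 in both populations and were not tested.

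Gapdh, an enzyme of glycolysis, was lower in Treg cells on all 3 of its probe sets, by 2.27-fold to 2.93-fold. The middle probe set read 13.34, 13.35 and 13.32 on the Treg arrays and 14.97, 14.76 and 14.93 on the effector arrays (log2). This was the largest of its 3 differences, at -1.55 (standard error 0.12, limma adjusted p = 6.08e-07). The 3′ probe set read 13.62, 13.53 and 13.42 on the Treg arrays and 14.90, 14.78 and 14.86 on the effector arrays, a difference of -1.32 (limma adjusted p = 2.61e-07). The 5′ probe set read 13.35, 13.67 and 13.96 on the Treg arrays and 14.92, 14.72 and 14.89 on the effector arrays, a difference of -1.19 (limma adjusted p = 5.39e-05). In transgenic mice the 3 differences were -1.37, -1.56 and -1.03 for the 3′, middle and 5′ probe sets, close to those in C57BL/6 mice. The differences between strains were 0.06 ± 0.13, 0.01 ± 0.18 and -0.16 ± 0.24 (log2 and standard error), with limma adjusted p-values of 0.906, 0.992 and 0.836. Among all tested probe sets whose brighter C57BL/6 population averaged 12 or more (log2), as Gapdh does, the median difference was -0.90 on the deposited values. With quantile normalization over all arrays the C57BL/6 Gapdh differences were -1.16, -1.37 and -1.02 for the 3′, middle and 5′ probe sets. The RefSeq stretch before the Gapdh start lies inside the annotated gene and holds neither motif.

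Beta-actin, of the cytoskeleton, was higher in Treg cells on all 3 of its probe sets, by 1.42-fold to 1.62-fold. The 3′ probe set read 16.01, 15.96 and 15.87 on the Treg arrays and 15.36, 15.18 and 15.22 on the effector arrays (log2), which is 0.69 more in Treg cells (standard error 0.09, limma adjusted p = 2.68e-05). These readings lie close to the top of the scale, since the brightest probe set of a C57BL/6 array read 16.35 to 16.49. The 5′ probe set was called at a limma adjusted p of 0.0197, and at 0.0918 without effector array 2 it was not. In transgenic mice the 3′ difference was 0.39 (limma adjusted p = 0.0023), and the middle and 5′ differences of 0.24 and 0.32 were not called (limma adjusted p = 0.0925 and 0.111). The difference between strains was not called on any of the 3 (limma adjusted p = 0.311 to 0.816).

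**Figure D1:**
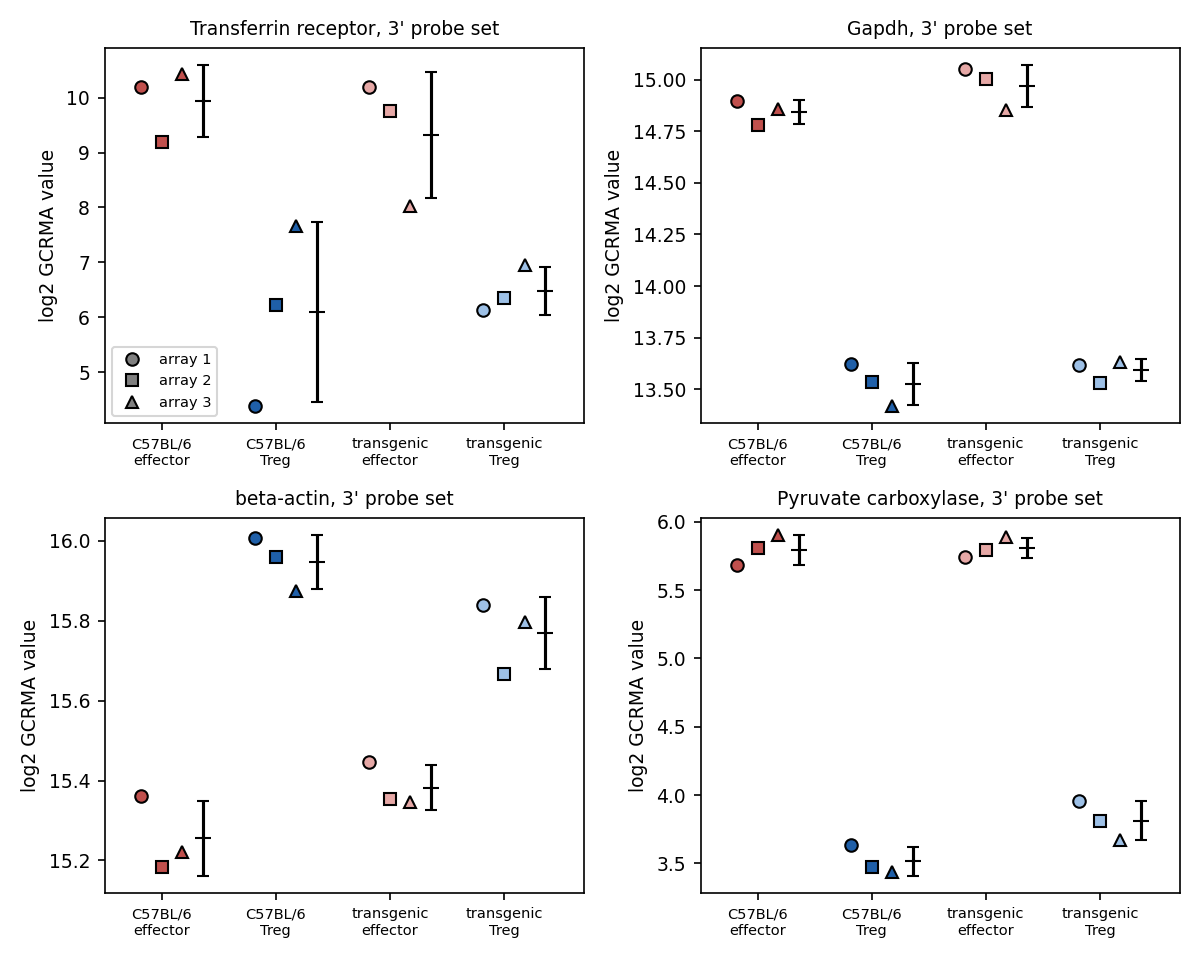
Log2 values of the 3′ probe sets of Tfrc, Gapdh, beta-actin and Pcx on all 12 arrays, with 1 symbol per array and bars for the mean ± SD of 3 arrays; each panel has its own vertical scale, which does not start at 0. In every panel the C57BL/6 Treg and effector arrays are apart, as they are in 76.7% of the 18271 tested probe sets other than controls. The Tfrc readings of the C57BL/6 Treg arrays run from 4.39 to 7.66.

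Transcripts of the short interspersed repeats B1 and B2, made from many copies in the mouse genome and found inside many other transcripts, did not move as 1 group. The B1 probe set read 10.99, 10.60 and 10.13 on the Treg arrays and 13.74, 14.12 and 13.65 on the effector arrays (log2). It was thus lower in Treg cells by -3.27 (standard error 0.24, limma adjusted p = 2.69e-07), and by -3.54 in transgenic mice. Of the 2 B2 probe sets, one read 8.54, 8.45 and 8.40 on the Treg arrays and 10.51, 10.95 and 9.88 on the effector arrays, and was lower in Treg cells (difference -1.99, limma adjusted p = 9.21e-06). The other lay near the top of the scale at 15.65, 15.66 and 15.75 on the Treg arrays and 15.54, 15.44 and 15.34 on the effector arrays. Its difference of 0.25 was called (limma adjusted p = 0.019), but with quantile normalization it was 0.03 (limma adjusted p = 0.728).

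The C57BL/6 Treg arrays differed from one another in readings that belong to no cell type. The 5′ probe set of 18S ribosomal RNA, a component of the small ribosomal subunit, read 11.78, 9.05 and 4.66 on Treg arrays 1, 2 and 3, and 3.89, 3.93 and 3.94 on the effector arrays (log2). It was called as higher in Treg cells (limma adjusted p = 0.00621, and 0.0404 with the 6 C57BL/6 arrays alone). The SD was 3.59 in Treg and 0.02 in effector cells. This probe set passed the filter only through Treg arrays, so a higher level in Treg cells was the only difference it could show. Treg array 3 and the effector arrays lay under a log2 value of 5. With such values raised to 5 the difference was 3.61 (log2, limma adjusted p = 0.0197). This is not a lower bound, since a Treg array was raised as well. The difference with raised values was 2.02 without Treg array 1 and 5.42 without Treg array 3 (log2), and in transgenic mice it was 2.31 (limma adjusted p = 0.0259 on the deposited values). The bacterial and phage transcripts added to each hybridization, read as the mean of their 18 probe sets with at least 5 (log2) on every array, gave 12.65, 11.63 and 10.50 on Treg arrays 1, 2 and 3 and 10.02 to 10.27 on the effector arrays. Of the Treg arrays, array 1 was thus highest for the added transcripts and for this 18S probe set and lowest on the 3′ Tfrc probe set, and array 3 the reverse. The 3′ minus 5′ difference, a measure of RNA length, was 0.56 to 0.88 for beta-actin on the Treg arrays and 0.41 to 0.80 on the effector arrays, and for Gapdh it was 0.27, -0.13 and -0.54 on Treg arrays 1, 2 and 3 and -0.04 to 0.06 on the effector arrays. For Tfrc it was 1.18, 2.86 and 3.41 on Treg arrays 1, 2 and 3, whose 5′ readings lay under 5 (log2), and 2.23 to 2.94 on the effector arrays. The part of these readings in the population differences was not tested. Treg array 3 also carries a provider code outside the series of codes of arrays 1 and 2, and the effector arrays carry codes from another series again.

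**Figure D2:**
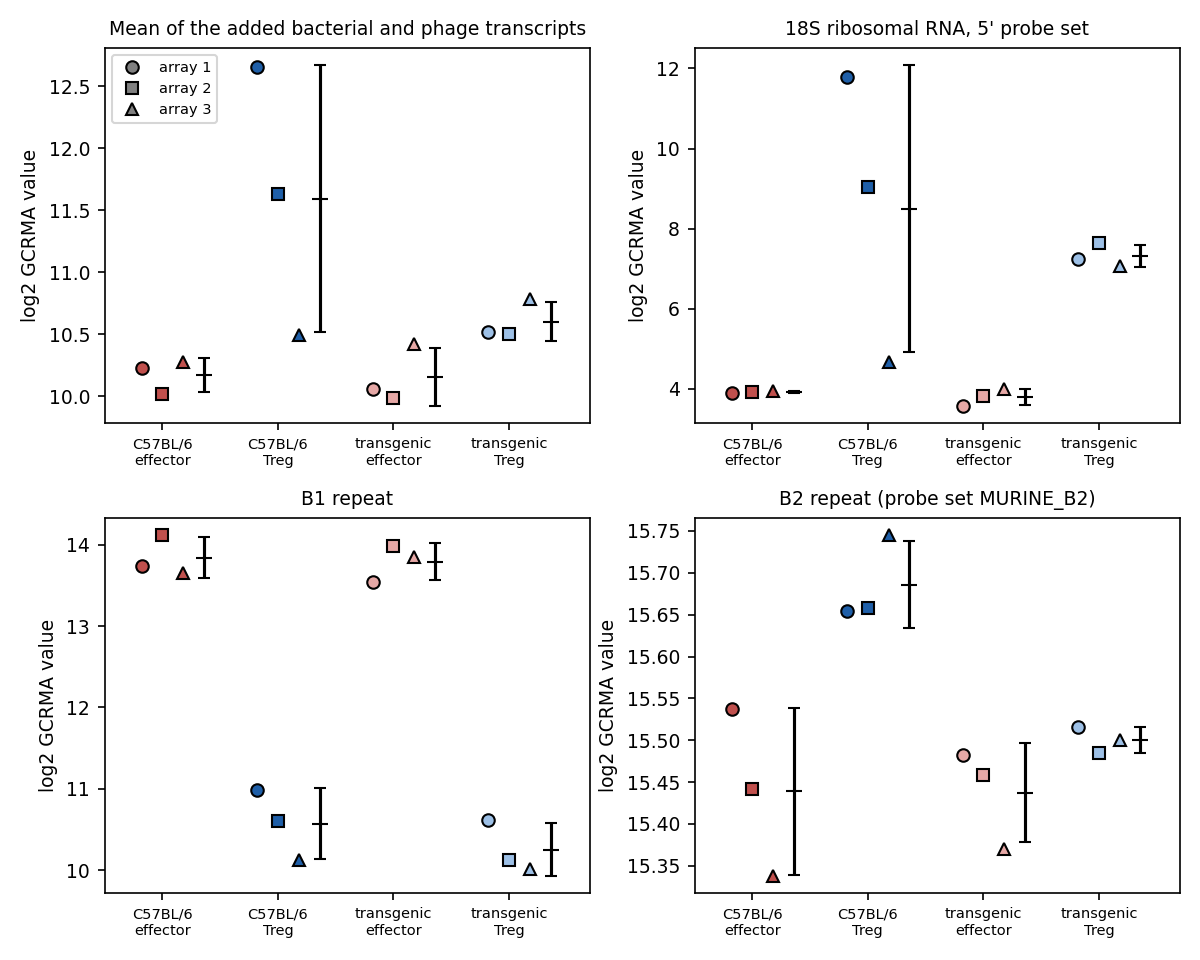
Log2 values of the added bacterial and phage transcripts (mean of 18 probe sets), 18S ribosomal RNA, B1 and B2 on all 12 arrays, with 1 symbol per array and bars for the mean ± SD of 3 arrays; the vertical scales differ and do not start at 0. The C57BL/6 Treg arrays are spread from 10.50 to 12.65 for the added transcripts and from 4.66 to 11.78 for 18S, whereas the effector arrays lie close together.

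Over the 18271 probe sets other than controls, arrays of the same population correlated at 0.985 to 0.992 in effector cells and at 0.923 to 0.977 in Treg cells, and arrays of different populations at 0.672 to 0.751. The median SD across 3 arrays was 0.30 in Treg and 0.16 in effector cells (log2), and the Treg SD was the larger in 69.5% of probe sets. In transgenic mice it was 0.21 in Treg and 0.25 in effector cells, and the fit estimates 1 variance per probe set from all 4 groups. Taken array by array against the effector mean, 2457, 2689 and 3046 probe sets were at least 4-fold higher on Treg arrays 1, 2 and 3, and 2298, 2465 and 2735 were at least 4-fold lower. Array 3, which correlated least with the effector arrays, had the most of both.

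Of these probe sets 13475, or 73.8%, were called, 31.7% with the higher level in Treg cells and 42% with the lower, and the C57BL/6 arrays of the populations did not overlap in 76.7%. The median difference of all 18271 was -0.26 (log2), so a probe set at that value has not moved relative to the rest. On the deposited values, called probe sets at least 4-fold apart numbered 5091 (27.9%), 2712 higher (14.8% of those tested) and 2379 lower (13%) in Treg cells. Many of these folds are set against values under a log2 value of 5, so the counts were also taken with such values raised to 5. Then 1323 were at least 4-fold higher and 1851 lower, 102 and 205 were at least 16-fold apart, and 5 and 10 at least 64-fold. The 2 populations thus differed over much of the measured transcriptome.

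Which direction prevailed among the large differences turned with the treatment of low values. The share of 4-fold differences that were higher in Treg cells was 53.3% on the deposited values, 41.7% with low values raised to 5 and 41.9% with the filter set at a log2 value of 7. It turned with the scaling as well, being 64.6% with each array centred on its median, 56.3% with quantile normalization over all arrays, and 52.9% with quantile normalization and low values raised to 5. Among all calls 43.0% were higher in Treg cells on the deposited values, 52.7% after centring and 51.2% after quantile normalization. No excess in either direction was therefore found under all of these settings.

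The direction of the large differences followed the level of the probe set on the deposited values, here with low values raised to 5. Where the brighter population averaged 8 to 10 (log2), 9.76% of 5656 probe sets were at least 4-fold higher and 12.7% at least 4-fold lower in Treg cells. Where it averaged 12 or more, 3.21% of 1525 were higher and 17.5% lower, and the median difference was -0.90. With quantile normalization first, these shares were 11.3% and 10.6% at 8 to 10, and 8.24% and 7.45% at 12 or more, where the median difference was -0.05. The excess of falls among bright probe sets was not seen after that scaling. Quantile normalization gives all arrays the same distribution of values, which by itself evens out a shift at the bright end. Whether the excess came from the scale of the arrays or from the cells was not tested. The deposited effector arrays had 99th percentiles of 13.5 to 13.6 and the Treg arrays of 12.9 to 13.0, so the deposited values of the populations differed at the bright end.

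**Figure D3:**
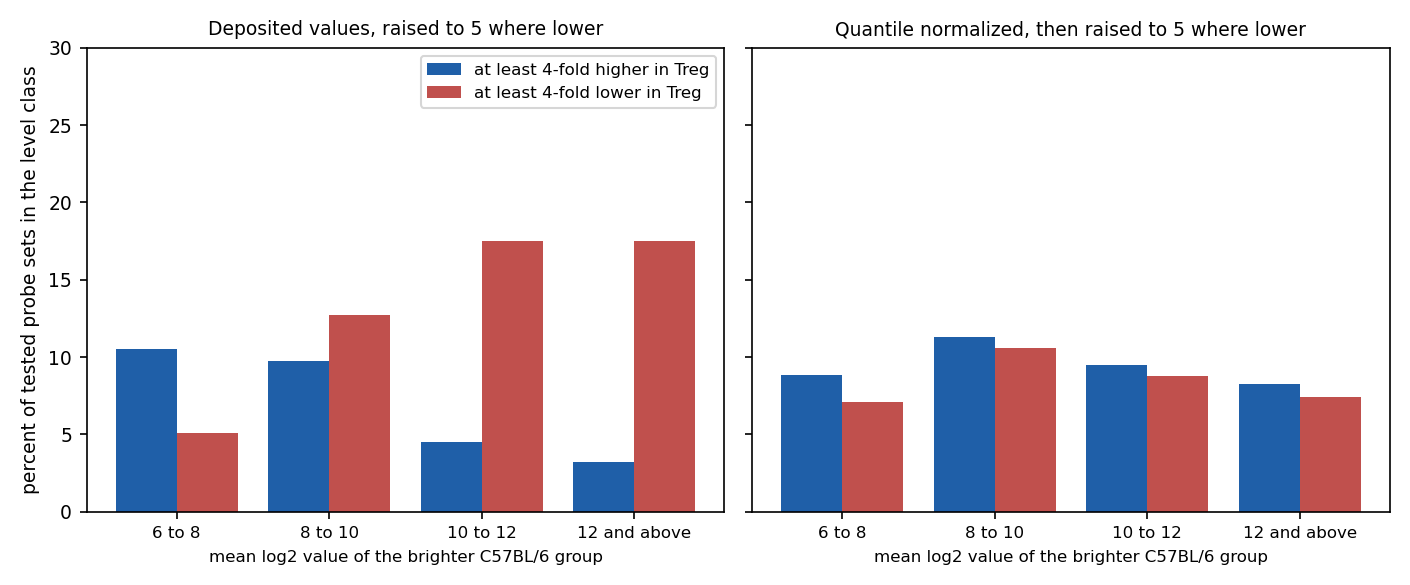
Share of tested probe sets called and at least 4-fold higher (blue) or lower (red) in C57BL/6 Treg than effector cells, by the mean log2 value of the brighter population, with values under 5 raised to 5, on the deposited values (left) and with quantile normalization over all 12 arrays first (right). On the left the red share is 17.5% in the brightest class, and on the right it is 7.45% there; probe sets whose brighter mean is under 6 are left out, since they cannot reach 4-fold above a level of 5.

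Probe sets were sorted by where they reached a log2 value of 5. All 6 C57BL/6 arrays reached it in 13188 probe sets, the 3 Treg arrays but no effector array in 2042, and the 3 effector arrays but no Treg array in 993. Another 34 reached it in neither population, and in 2014 the arrays of 1 population were on both sides. After quantile normalization, which gives all arrays the same distribution, 1411 were at this level only in Treg and 1287 only in effector cells. The excess of the first was thus smaller after that scaling. Among the 13188 measured on both sides, 8946 (67.8%) were called, 570 were at least 4-fold higher and 1327 at least 4-fold lower in Treg cells. After quantile normalization the corresponding numbers were 917 and 734 of 13086, so this direction turned with the scaling.

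The transgenic arrays, none of which served in the C57BL/6 difference, sorted many of the same probe sets in the same way. Of the 2042 at this level only in C57BL/6 Treg cells, 1496 (73.3%) were also at it only in transgenic Treg cells, where 1899 were in all. Of the 993 only in C57BL/6 effector cells, 769 (77.4%) were only in transgenic effector cells, where 1009 were in all. None changed to the other population, while 33 of the first and 7 of the second reached the level on all 6 transgenic arrays. In transgenic mice too, effector cells were cultured and came from 1 mouse an array, Treg cells were fresh and pooled, and the provider codes of the populations were apart, so that cell population, culture, pooling and provider run cannot be told apart in either strain.

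The 4 types of probe set, told by the suffix of the identifier, were described by direction with low values raised to 5, and no test between them was made. The 12806 with the suffix _at, designed for 1 transcript, were at least 4-fold higher in Treg cells in 8.78% and lower in 8.75%. The other 3 types leaned to the lower side, with 3.84% higher and 12.5% lower of 2893 _a_at, 3.63% and 11.5% of 1294 _s_at, and 3.21% and 17.1% of 1278 _x_at probe sets. With quantile normalization first, the _at type stood at 10.2% higher and 6.86% lower and the _x_at type at 3.99% and 12.2%. The lean to the lower side was thus found in all 3 types other than _at on the deposited values, and the shares for _a_at and _s_at after quantile normalization were 4.91% against 8.81% and 5.10% against 7.65%.

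The largest differences, ranked with values under a log2 value of 5 raised to 5, lay in probe sets whose genes are not named here. Probe set 1450790_AT read 2.52, 2.50 and 2.48 on the Treg and 12.74, 12.57 and 12.60 on the effector arrays (log2), so that effector cells were at least 199-fold higher (limma adjusted p = 3.64e-11). Probe set 1449005_AT read 2.79, 2.78 and 3.29 on the Treg and 12.49, 12.30 and 12.92 on the effector arrays, at least 190-fold higher in effector cells (limma adjusted p = 4.6e-09). In transgenic mice, effector cells were at least 117-fold higher for the first and at least 161-fold higher for the second. In the other direction, 1456956_AT read 11.43, 12.02 and 12.39 on the Treg and 3.23, 3.40 and 3.30 on the effector arrays, at least 123-fold higher in Treg cells (limma adjusted p = 1.12e-07). Probe set 1428547_AT read 11.51, 11.64 and 11.75 on the Treg and 4.68, 3.82 and 5.28 on the effector arrays, at least 93.0-fold higher in Treg cells (limma adjusted p = 6.11e-09). The 4 were picked by size among called probe sets whose groups do not overlap, so their separation follows from that choice.

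**Figure D4:**
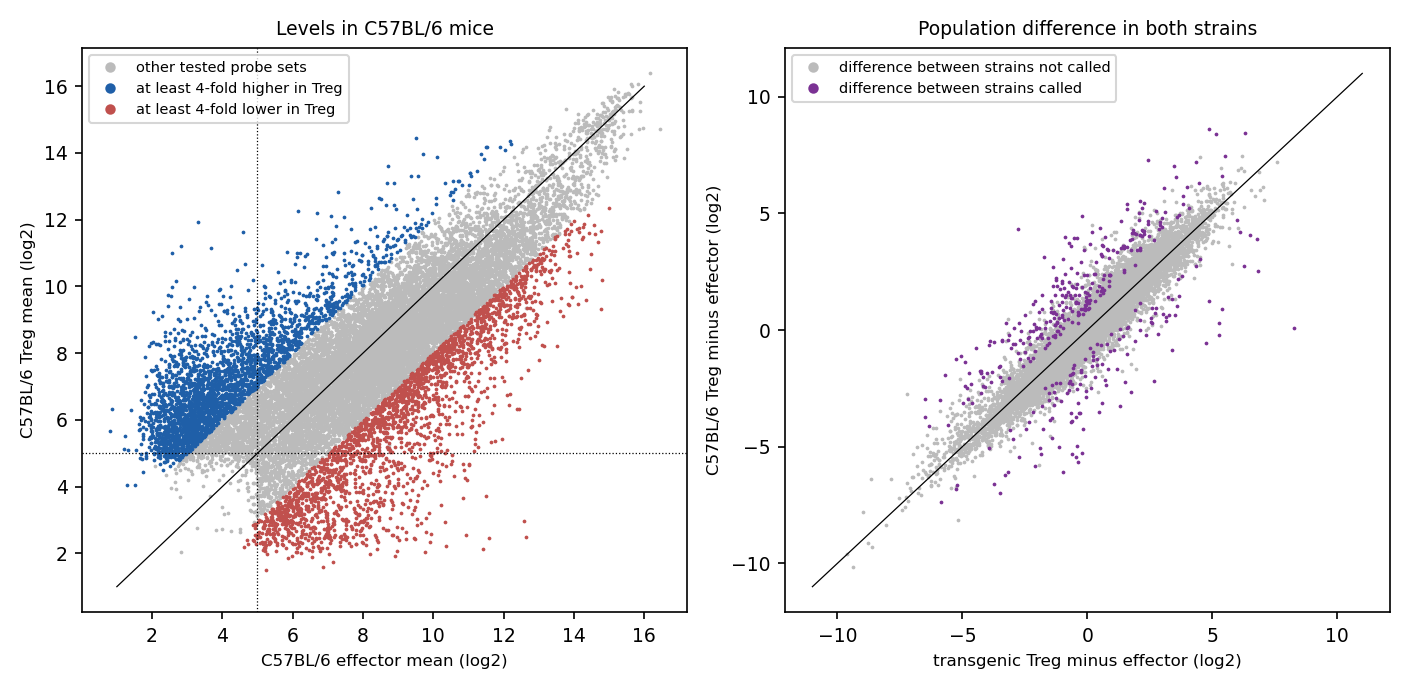
Left, mean log2 value in C57BL/6 Treg against effector cells for the 18271 tested probe sets, with those called and at least 4-fold apart in colour (2712 higher and 2379 lower in Treg cells), dotted lines at a log2 value of 5 and a diagonal of equal levels. Right, the Treg minus effector difference in C57BL/6 against transgenic mice (log2), with the 413 probe sets whose difference between strains was called in purple and a diagonal of equal differences.

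The size of the C57BL/6 difference was tested against that in transgenic mice, where 70% of the probe sets were called and 24.2% were also at least 4-fold apart. Of the 2712 probe sets at least 4-fold higher in C57BL/6 Treg cells, 2599 were called in the same direction in transgenic mice and 8 in the opposite one, and of the 2379 lower ones 2302 and 5. These counts describe the C57BL/6 set on other arrays and share 1 residual variance per probe set with it.

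The population difference itself differed between strains in 413 of the 18271 probe sets, or 2.26%. Among the 5091 at least 4-fold apart in C57BL/6 mice 203 (3.99%) did so, 109 of the 119 higher ones and 65 of the 84 lower ones with the larger difference in C57BL/6 mice. The sets were picked on the C57BL/6 arrays, which fixes part of that direction. In 52 probe sets the difference was called in opposite directions in the strains and also differed between them, 38 of which were higher in C57BL/6 Treg cells. The count of 413 was 247 without effector array 1, 251 without effector array 2 and 214 without Treg array 2 of C57BL/6 mice, and 2529 with array weights.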

How the data were processed

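The authors deposited log2 values that come from GCRMA, which corrects Affymetrix probes for background, normalizes them and sums them up per probe set, per the submitters' processing notes, while neither its version nor whether both populations were normalized together is given in the sources used here. RNA went through 1 round of amplification, per the labels' protocols. The table held 45101 probe sets, of which 64 were controls. Groups and replicate numbers came from the sample titles.

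With limma 3.58.1 (R 4.3.3), 1 mean per group was estimated from the 12 arrays, with moderated variances that follow the level (eBayes with trend), for the 18271 probe sets other than controls with 3 or more arrays at 5 or above (log2). The 16 mouse control probe sets that passed were added in a second fit over 18287. Calls had a Benjamini-Hochberg adjusted p under 0.05. The fits were also run on simulated data in which most probe sets did not differ between groups. Most did differ here, so that run says little about these calls. The number of arrays limits the precision. The design text states that the 3 arrays in each group are biologically separate.

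The probe sets named are the 2 largest in each direction by the rule in the text, among called ones whose groups do not overlap. Gene lists had been written for this comparison but were not used, since no table used here pairs probe sets with genes. The arrays, lists and tests were chosen with earlier results of these data known, and the fit with the control probe sets, the fits without transgenic effector array 3, and the counts by level and type and the bounds with values under 5 raised to 5 were added after the data were seen. Same-numbered Treg and effector arrays come from different mice, and their deviations from the group means correlated at 0.0079, 0.026 and 0.20, so they were not treated as pairs. The alternatives changed the normalization, the filter, the variance model or the threshold, or used the 6 arrays alone, a block for the replicate number and leaving out each of the 6 arrays. Figures were drawn with matplotlib 3.10.9.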

Additional observations from a re-analysis of the deposited data

Results flagged for a closer look

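The population difference of 2 of the 4 named probe sets differed between the strains. Probe set 1428547_AT was higher in C57BL/6 Treg than effector cells by 7.04 and in transgenic mice by 3.48 (log2), a difference of 3.56 (limma adjusted p = 0.00156). Its Treg means were close, at 11.63 in C57BL/6 and 11.05 in transgenic mice, and its effector means were 4.59 and 7.57. Probe set 1456956_AT was higher in Treg cells by 8.63 in C57BL/6 and by 4.87 in transgenic mice, a difference of 3.76 (limma adjusted p = 0.0331). Here the Treg means were 11.94 and 8.93 and the effector means 3.31 and 4.05, under a log2 value of 5 in both strains. The transgenic effector arrays 1, 2 and 3 read 5.43, 3.33 and 3.40, so array 1 lay above 5. With values under 5 raised to 5, the difference between strains was 3.06 for 1428547_AT (limma adjusted p = 0.000124) and 3.16 for 1456956_AT (limma adjusted p = 0.0119). Both probe sets were named for their size on the C57BL/6 arrays, which fixes part of the direction in which the strains differ.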

How the results depend on the processing

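The 13475 calls ranged from 12519 to 13392 with 1 C57BL/6 array left out, and the 5091 calls of at least 4-fold from 4887 to 5408. Without a filter on low values the calls were 31870 in C57BL/6 and 31397 in transgenic mice, since more probe sets were tested. The count of at least 4-fold was 3238 with a filter at a log2 value of 7 and 3174 with values under 5 raised to 5, and in both more were lower than higher in Treg cells (1880 against 1358, and 1851 against 1323). A replicate block over the 6 C57BL/6 arrays gave counts of 12987 and 5091. The brighter B2 probe set lost its call with the 6 C57BL/6 arrays alone (limma adjusted p = 0.0656) and with the replicate block over them (limma adjusted p = 0.173). No other named probe set lost its call under these settings. The 413 differences between strains were 2529 with array weights and 150 at an adjusted p under 0.01, and ranged from 214 to 433 with 1 C57BL/6 array left out. The cause of the array weight result was not tested. Of 318 values of single named probe sets under the alternatives, 310 kept direction and call, 8 lost the call and 0 reversed. The losses were in the brighter B2 and the 5′ beta-actin probe sets. The alternatives for gene lists were not run, because no table used here pairs probe sets with genes. Signal near background limits the folds of probe sets that lie under a log2 value of 5 in 1 population.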
